A study of Mus musculus with 2 samples.

Results

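The genes of the AP-1 transcription factors were examined in H3K27ac HiChIP of mouse microglia. They were Jun, Junb, Jund, Fos, Fosb, Fosl1, Fosl2, Atf3 and Batf. HiChIP of this histone mark counts pairs of genomic segments that lie close together in chromatin and bear H3K27ac, the acetylation of histone H3 found on active promoters and enhancers. Interactions were taken where a 10 kb anchor overlapped the mm10 span of any of these genes, widened by 1 kb at both ends. The rule used no measured value. It found 41 of the 19061 interactions of the sham library and 90 of the 42905 of the day 6 library, and none joined a pair of these genes. All 9 genes had interactions in both lists, as did 41.4% of 21887 protein-coding genes.

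Both libraries came from male wild-type C57BL/6J mice of 8 to 24 weeks. The day 6 mice had a transient middle cerebral artery occlusion (MCAO) of 60 min, and the sham mice had the same surgery without the occlusion. Cells with intermediate CD45 and CD11b were sorted from a hemisphere, 200000 to 300000 per library, after enzymatic digestion of the forebrain. There was 1 library per group, and how many animals each was made from is not stated in the labels. No difference below has a replicate check or a test. A gene counts as having more or fewer contacts when its log2 ratio reached 1 or -1 and at least 3 interactions were listed in either library. Intervals are exact 95% intervals (Poisson for counts, Clopper-Pearson for shares and ratios) and cover counting error only. They leave out variation between animals and libraries, and the effect of listing only interactions past the q-value limit. Reads carried no molecular identifier and may repeat a molecule, so the intervals may be too narrow even for counting error.

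AP-1 is a dimer of basic leucine zipper (bZIP) proteins, in which a Jun protein pairs with a Fos, ATF, BATF or another Jun protein. Fos, Fosb, Jun, Junb and Atf3 are immediate early genes, transcribed within minutes of a stimulus. In macrophages and microglia AP-1 binds enhancers beside the lineage factor PU.1. H3K27ac contacts of these genes describe the segments they lie close to and are not a measure of their RNA.

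Several AP-1 genes carry binding motifs of their own family near their starts, so these were searched in the RefSeq promoter sequences of GRCm38.p6, from 250 bases before to 50 bases after each start. The motifs were TGANTCA, the Jun-Fos site, TGANNTCA, and TGACGT, the core of the cyclic AMP response element that ATF and CREB proteins bind. Both strands were read, and the full palindromic response element would match the latter 2. A sequence was at hand for 8 of the 9 genes, all but Fosl1. TGANTCA occurred in 6.99% of 21263 coding promoters, TGANNTCA in 13.2%, TGACGT in 8.49% and any of the motifs in 24.6%. TGANTCA was in none of the 8, and 5 of them held another of the motifs: Jun, Jund, Fos, Atf3 and Batf. These 5 are printed, as the 160 bases before the start on the strand of the gene, with the motif in capitals. Jun lies on the minus strand (chr4:95052223-95052382), Jund on the plus strand (chr8:70697579-70697738), Fos on the plus strand (chr12:85473730-85473889), Atf3 on the minus strand (chr1:191183334-191183493) and Batf on the plus strand (chr12:85686560-85686719).
Jun: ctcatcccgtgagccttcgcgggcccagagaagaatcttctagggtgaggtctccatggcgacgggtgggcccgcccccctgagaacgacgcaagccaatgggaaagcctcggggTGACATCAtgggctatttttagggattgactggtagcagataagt
Jund: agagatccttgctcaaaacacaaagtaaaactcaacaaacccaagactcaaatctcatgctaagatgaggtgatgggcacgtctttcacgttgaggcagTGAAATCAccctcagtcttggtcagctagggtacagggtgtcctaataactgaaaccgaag
Fos: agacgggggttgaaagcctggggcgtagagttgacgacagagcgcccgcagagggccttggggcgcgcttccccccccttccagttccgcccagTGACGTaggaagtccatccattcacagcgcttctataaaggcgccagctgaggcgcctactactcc
Atf3: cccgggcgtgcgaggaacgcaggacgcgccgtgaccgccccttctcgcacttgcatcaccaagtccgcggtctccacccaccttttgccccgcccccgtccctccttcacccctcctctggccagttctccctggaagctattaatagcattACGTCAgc
Batf: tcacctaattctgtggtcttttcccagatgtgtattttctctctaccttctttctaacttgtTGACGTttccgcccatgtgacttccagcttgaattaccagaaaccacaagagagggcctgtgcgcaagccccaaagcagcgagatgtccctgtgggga
In Jun the match TGACATCA covered bases -45 to -38 from the start, and a further match, TGAGCTCA, lay after the start. The other matches covered bases -61 to -54 in Jund, -66 to -61 in Fos, -8 to -3 in Atf3 (ACGTCA, the motif on the other strand) and -98 to -93 in Batf. A match is a description of these letters and not a measured binding site.

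The 9 genes together had 1260 contacts in the sham list and 2931 in the day 6 list. The 41 and 90 interactions were 0.215% (0.154 to 0.292) of the sham interactions and 0.210% (0.169 to 0.258) of the day 6 interactions, and the intervals overlap. The contacts were 0.251% of those in the sham list and 0.273% of those in the day 6 list. Each gene had more contacts in the day 6 list before scaling, as the plot of contacts per gene shows, but the day 6 list as a whole held 2.14 times the contacts of the sham list. After division by the total of called contacts, Fos and Batf had more contacts at day 6, none had fewer, and 7 did neither. The direction of Fos turned with a wider flank, as given with that gene. Over all 9638 genes with at least 3 interactions in either list, 39.1% had more and 10.3% had fewer. The median log2 ratio was 0.05 for the 9 genes against 0.54 for all genes, and 0.17 for all genes with interactions in both lists.

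**Figure D1:**
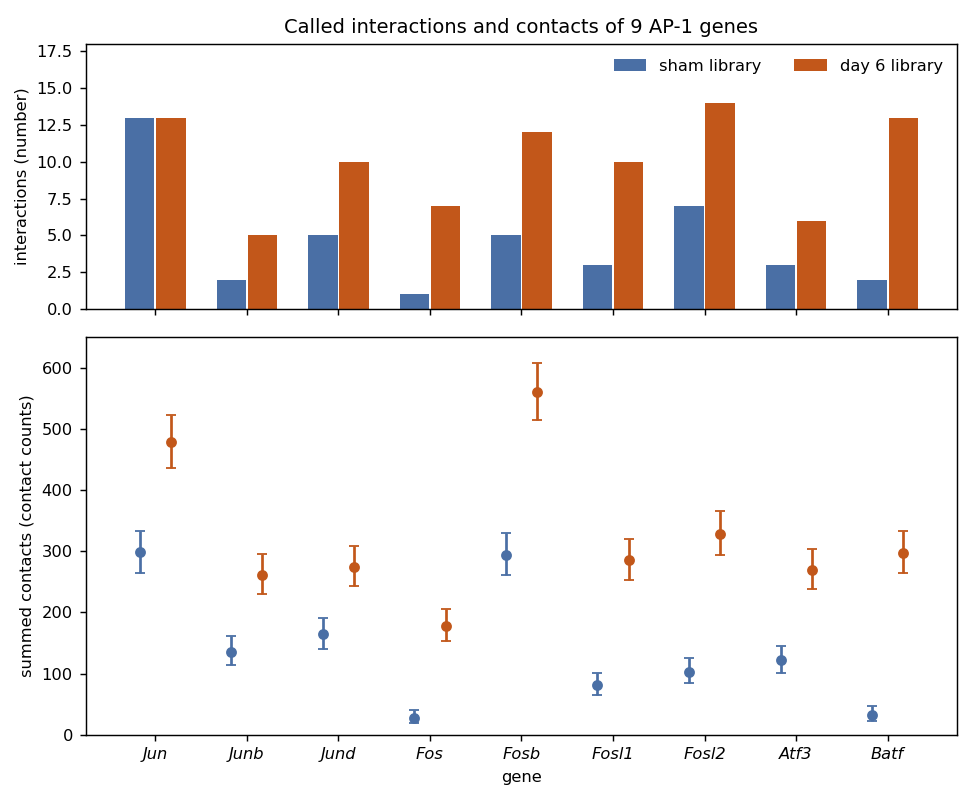
Called interactions (upper panel, number) and their summed contacts (lower panel, contact counts) for each gene in the sham and day 6 libraries; bars on the points are exact 95% Poisson intervals. Jun has 13 interactions in both libraries, Fos goes from 1 to 7 and Batf from 2 to 13, and every gene has more unscaled contacts at day 6.

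The number of genes past the rule depended on the scaling, since the lists differ in length and the depth of the libraries is not analysed here. Scaled by the contacts of the interactions present in both lists, which moves the median of all genes to 1.56, 5 of the 9 had more contacts (Fos, Fosl1, Fosl2, Atf3 and Batf) and none fewer. The background was then 66.3% more and 1.93% fewer. Scaled by the contacts that the caller modelled, which moves the median to 2.20, all 9 had more, with 84% of genes more and 0.82% fewer. Those modelled contacts were 3629250 in sham and 2258259 at day 6, so they were fewer at day 6, whereas called contacts were more. With the day 6 list shortened to the length of the sham list by q-value, 7 genes could be measured, only Batf had more and none fewer, against 30.1% more and 17.9% fewer. Under the first 3 scalings Batf and Fos were highest and Jun and Jund lowest, while Junb and Fosb, with nearly equal ratios, changed places.

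**Figure D2:**
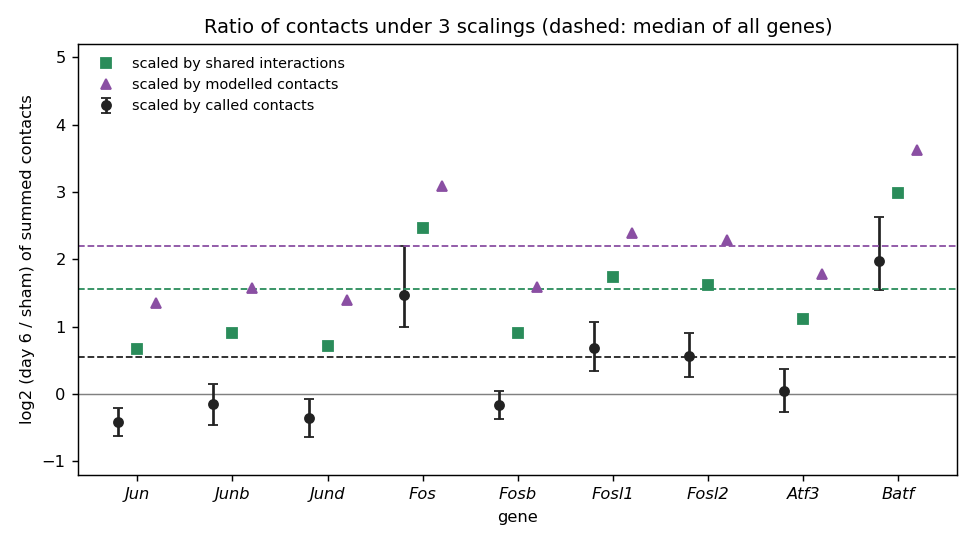
Log2 ratio of summed contacts, day 6 over sham, for each gene under 3 scalings; bars are 95% intervals of counting error for the scaling by called contacts, and dashed lines are the medians of all genes at 0.54, 1.56 and 2.20. Jun, Junb, Jund, Fosb and Atf3 lie below the median of all genes under each scaling, and Fos and Batf lie above it.

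Jun, the transactivating partner common to most AP-1 dimers (chr4:95049036-95052222, minus strand), had 13 interactions in each list. Summed, they held 298 (265 to 334) and 478 (436 to 523) contacts in sham and at day 6. The log2 ratio was -0.41 (-0.63 to -0.20), below the list as a whole, but 0.67 by shared interactions and 1.35 by modelled contacts. It was 0.33 with lists of equal length and 0.07 with a q-value under 0.00001. All came from the bin that starts at 95050001, and no sham bin anywhere had more interactions. At day 6 this bin was at percentile 99.8 of anchors by number of interactions, where the maximum was 24.

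All 13 sham partners and 12 of 13 day 6 partners lay upstream of its start. A cluster of 6 partner bins in each list, 110 to 180 kb away in a stretch with no coding gene, held 177 (152 to 205) and 278 (246 to 313) contacts in sham and at day 6. Those were 3.40 and 5.48 times the caller's expected count. The deepest interaction of Jun, 150 kb upstream in the bin from 95200001 on the lncRNAs Gm12708 and Gm32240, was found only at day 6. It held 79 contacts against 7.56 expected (10.5 times), and its q-value of 3.0e-47 was the 23rd smallest of the day 6 list. That bin was no anchor in the sham list. Its neighbour at 95190001 had 31 contacts with Jun in sham only, and the neighbour at 95210001 had 32 in sham and 37 at day 6. The cluster was thus contacted in both libraries, with the tallest bin at day 6 between bins already contacted in sham.

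A farther group of partners lay in Fggy, a gene for a carbohydrate kinase, 500 to 870 kb upstream. It had 5 interactions and 79 contacts (62.5 to 98.5) in sham, 7.29 times the expected count, and 4 interactions and 131 contacts (110 to 155) at day 6, 9.22 times. The bin from 95850001, 800 kb away, went from 11 contacts in sham to 51 at day 6, where the expected count was 3.35. This was the largest increase among the interactions of Jun in both lists. Of the 9 interactions of Jun shared by both lists, 8 had more unscaled contacts at day 6, and the exception was the bin from 95220001 with 28 in sham and 21 at day 6. Partner bins of Jun were also joined to each other, by 1 interaction of 13 contacts in sham and by 4 interactions of 78 contacts at day 6.

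**Figure D3:**
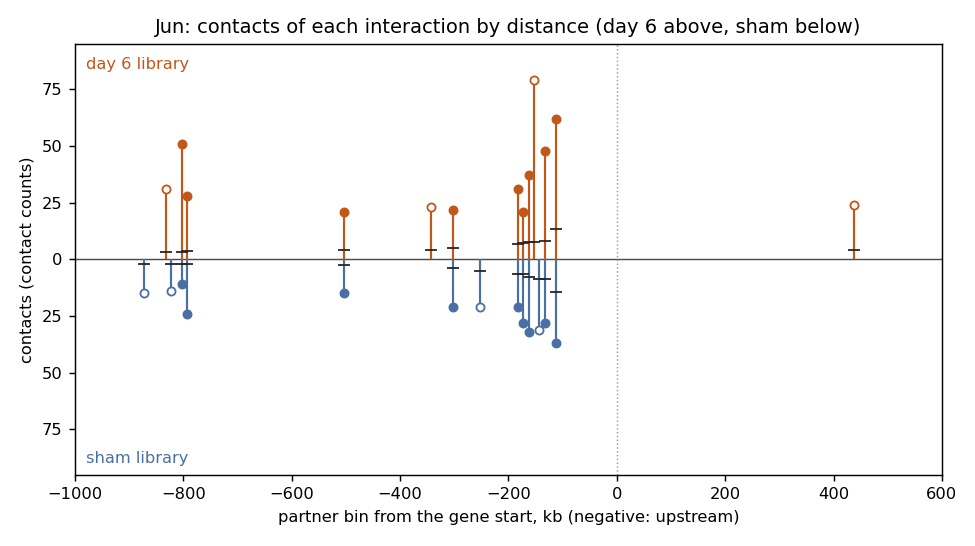
Contacts (contact counts) of each Jun interaction against the distance of the partner bin from the Jun start in kb, day 6 upward and sham downward. Filled points are interactions in both lists, open points are in 1 list only and short dashes are the caller's expected counts. The highest point, 79 contacts at 150 kb upstream, is open, and the filled point with 51 contacts at day 6 and 11 in sham lies in Fggy.

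Junb, a Jun paralogue with weaker transactivation (chr8:84976909-84978748, minus strand), had 2 interactions with 136 contacts (114 to 161) in sham and 5 with 261 (230 to 295) at day 6. This gave a log2 ratio of -0.15 (-0.46 to 0.15), or 0.91 by shared interactions and 1.58 by modelled contacts. Its bin also holds Prdx2 and Rnaseh2a, so these genes share the interactions. The interaction with the Hook2 bin 20 kb upstream was in both lists, with 123 contacts in sham and 97 at day 6, and was the deepest of Junb in each. At day 6 the bin of Get3 and Trir, 50 kb upstream, added 90 contacts and that of Klf1 and Dnase2a, 70 kb downstream, 47. Klf1 encodes an erythroid factor and Dnase2a a lysosomal nuclease.

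The bin next to that of Junb, 1253 bases beyond the span and counted for Hook2, differed more between libraries than the bin of Junb itself. It had 1 interaction with 25 contacts in sham and 11 with 273 at day 6, a log2 ratio of 2.21. With a flank of 5 kb that takes it in, the log2 ratio of Junb was 0.62 in place of -0.15.

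Jund, the most constitutively expressed of the Jun genes (chr8:70697739-70700616, plus strand), had 5 interactions with 164 contacts (140 to 191) in sham and 10 with 274 (243 to 308) at day 6. Its log2 ratio was -0.35 (-0.64 to -0.07), or 0.72 and 1.39 by the other scalings. Jund and Iqcn have bins in common, so they share interactions. No interaction of Jund was in both lists. In sham, 88 of its contacts were with Lsm4, 20 kb upstream, followed by Ssbp4 with 23 and the bin of Mast3 and Il12rb1 with 22. At day 6 the deepest was the bin of Ifi30, Mpv17l2 and Pik3r2, 60 kb downstream, with 57 contacts against 8.21 expected (6.95 times). These contacts came from the Jund bin at 70700001, which holds the end of the gene and not its start. Ifi30 encodes a lysosomal thiol reductase of antigen processing, and its bin had 13 interactions at day 6 and 8 in sham. A bin of Ell, a transcription elongation factor, held 38 contacts, and the bin of Iqcn and Gm3336 held 32.

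Fos (chr12:85473890-85477274, plus strand), the prototype immediate early partner of Jun, had 1 interaction with 28 contacts (18.6 to 40.5) in sham and 7 with 178 (153 to 206) at day 6. The log2 ratio was 1.47 (0.99 to 2.20), past the rule, and 2.47 and 3.10 by the other scalings. All but 1 of the 7 day 6 partners were upstream. They included bins at 40 kb with 36 contacts and at 80 kb with 32, neither with a coding gene, and Tmed10 bins with 32 and 29. The only sham interaction, 130 kb upstream in the bin of Nek9 and Tmed10, was not in the day 6 list for this bin.

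The value for Fos depended on which bins were counted for it. The next bin downstream, 2727 bases past the gene, had 6 interactions with 183 contacts in sham and 4 with 157 at day 6, a log2 ratio of -1.28. Its interactions with the bin of Nek9 and Tmed10 were in both lists with 41 and 49 contacts, and those with a Tmed10 bin held 37 and 77. With a flank of 5 kb, which takes in the bins on either side, Fos had 9 interactions with 265 contacts in sham and 15 with 448 at day 6, and the log2 ratio turned to -0.34. Fos also left the rule at 0.41 with lists of equal length and at 0.16 with a q-value under 0.00001. The higher value at day 6 thus held for the bin of Fos and not for that bin together with its neighbours.

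Fosb (chr7:19302696-19310118, minus strand), whose splice forms include the stable variant deltaFosB, had the most contacts of the 9 at day 6. It had 5 interactions with 294 contacts (261 to 330) in sham and 12 with 560 (515 to 608) at day 6. Their log2 ratio was -0.17 (-0.38 to 0.04), or 0.91 and 1.59 by the other scalings. The deepest interactions were upstream at 20 to 40 kb, and 3 of them were in both lists. The bin from 19320001 had 68 and 103 contacts, the Ercc1 bin 52 and 81, and the bin from 19330001 had 81 and 62 from the bin of the start. From the other Fosb bin, 19330001 had 64 contacts in the sham list only. Ercc1 encodes a DNA repair nuclease subunit. At day 6 the partners formed a run of adjacent bins through Ercc1, Cd3eap and Ppp1r13l. Partner bins of Fosb were joined by 8 interactions with 279 contacts at day 6 against 1 with 19 in sham, the highest number among the 9 genes.

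Fosl1 (chr19:5447698-5455938), which encodes the Fos-related antigen Fra-1, had 3 interactions with 82 contacts (65.2 to 102) in sham and 10 with 285 (253 to 320) at day 6. Its log2 ratio was 0.68 (0.34 to 1.07), under the rule, or 1.73 and 2.40 by the other scalings. A flank of 5 kb brought it to 1.00, just past the rule. The interactions are shared with Ccdc85b and Fibp, which lie in the same bins. No interaction was in both lists. The deepest sham partner was the bin of Efemp2, Mus81 and Cfl1 with 51 contacts, 30 kb away. At day 6 the deepest was Tsga10ip with 66, followed by the bin of Cfl1, the actin-severing protein cofilin, and Snx32 with 39. Bins of Efemp2 and of Drap1 with AI837181 had 35 each.

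Fosl2 (chr5:32136472-32157840, plus strand), which encodes Fra-2, had 7 interactions with 103 contacts (84.1 to 125) in sham and 14 with 328 (293 to 365) at day 6. The log2 ratio was 0.56 (0.25 to 0.91), close to the median of all genes, or 1.62 and 2.29 by the other scalings. In sham all 7 interactions reached 250 to 580 kb upstream, to 5 bins. At day 6 further partners lay both closer and farther. The closer ones included bins at 20 kb with 44 contacts, at 30 kb with 38 and, downstream, at 60 kb with 41, all with no coding gene. The farther ones lay 620, 680 and 770 kb upstream and 1240 and 1520 kb downstream, with 13 to 26 contacts each. The bin of Rbks and Babam2, 440 to 450 kb upstream, was contacted from both Fosl2 bins in both lists. It held 14 and 18 contacts in sham and 16 and 32 at day 6. The Slc4a1ap bin, 580 kb upstream, held 19 contacts in sham and 14 at day 6 with the Fosl2 bin at 32140001. With the start bin of Fosl2 it held a further 11, in the sham list only. Pooled over its interactions, the contacts of Fosl2 were 5.96 times the expected count in sham and 3.77 times at day 6, whereas those of Jun were 4.14 and 6.12 times.

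Atf3 (chr1:191170296-191183333, minus strand), a stress-induced factor that pairs with Jun and can repress inflammatory genes, had 3 interactions with 122 contacts (101 to 146) in sham and 6 with 270 (239 to 304) at day 6. This gave a log2 ratio of 0.05 (-0.27 to 0.37), or 1.11 and 1.78 by the other scalings. With no flank Atf3 had 2 interactions with 81 contacts in sham and 5 with 227 at day 6, a log2 ratio of 0.38. Atf3 and Fam71a have bins in common, so they share interactions. No partner bin in either list held a coding gene. The interaction with the bin from 191270001, 90 kb upstream, was in both lists with 42 and 47 contacts. The sham list also had the bin from 191260001 with 39 contacts and, downstream, that from 191120001 with 41. The 41 contacts came from a bin counted for Atf3 only through the flank.

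At day 6 the 3 bins counted for Atf3, 1 of them only through the flank, contacted the bin from 191280001, 100 to 120 kb upstream, with 67, 43 (from the flank) and 26 contacts. That bin was an anchor in sham too, with 4 interactions, none with Atf3. At day 6 it had 12 interactions, and its relative coverage, the deposited coverage of a bin over a constant of its library, was 2.35 in sham and 3.80 at day 6. Bins at 60 and 70 kb upstream, with 49 and 38 contacts at day 6, were no anchors in the sham list. All day 6 partners of Atf3 thus lay 60 to 120 kb upstream of it.

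Batf (chr12:85686720-85709087, plus strand), which lacks a transactivation domain and pairs with Jun beside IRF factors, differed most. It had 2 interactions with 33 contacts (22.7 to 46.3) in sham and 13 with 297 (264 to 333) at day 6. The log2 ratio was 1.97 (1.55 to 2.64), and 2.99 and 3.63 by the other scalings, past the rule under each of the alternatives that could be measured. The bin of its start was no anchor in the sham list and had 4 interactions at day 6. The sham partners were the bin of Dlst and Rps6kl1 with 14 contacts, 570 kb upstream, and the bin from 85510001 with 19.

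Fos and Batf lie 209 kb apart on chromosome 12, and Jdp2, a bZIP gene whose protein pairs with Jun and represses, lies between. Batf had 1 interaction with 19 contacts into the stretch between Fos and Batf in sham and 6 with 161 of its 297 contacts at day 6. The 19 contacts came from the bin at 85710001, counted for Batf only through the flank. With no flank Batf had 1 interaction with 14 contacts in sham and 9 with 219 at day 6, a log2 ratio of 2.62. The deepest partner in the stretch was the bin from 85530001, on the lncRNA Gm32296. It had 45 contacts from the Batf bin at 85700001 and 21 from the flank bin. This partner bin had 2 interactions in sham and 10 at day 6, and relative coverage of 2.04 and 2.95. Other partners were the bin from 85560001 with 30 contacts, on the lncRNA Gm32348, and the bin from 85720001 with 43, just downstream of Batf.

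Jdp2 had 7 interactions with 164 contacts in sham and 6 with 171 at day 6, a log2 ratio of -1.01, while by shared interactions and modelled contacts no bZIP gene had fewer. It had 4 interactions into the same stretch in each list, with 115 and 135 contacts. Its interaction with the bin from 85530001 was in both lists, with 48 and 51 contacts. The number of partner bins that Batf and Jdp2 had in common was 1 in sham and 3 at day 6, and Fos and Batf had none in common. The bin just downstream of Fos, but not that of Fos, was joined to the start bin of Batf at day 6 with 17 contacts.

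**Figure D4:**
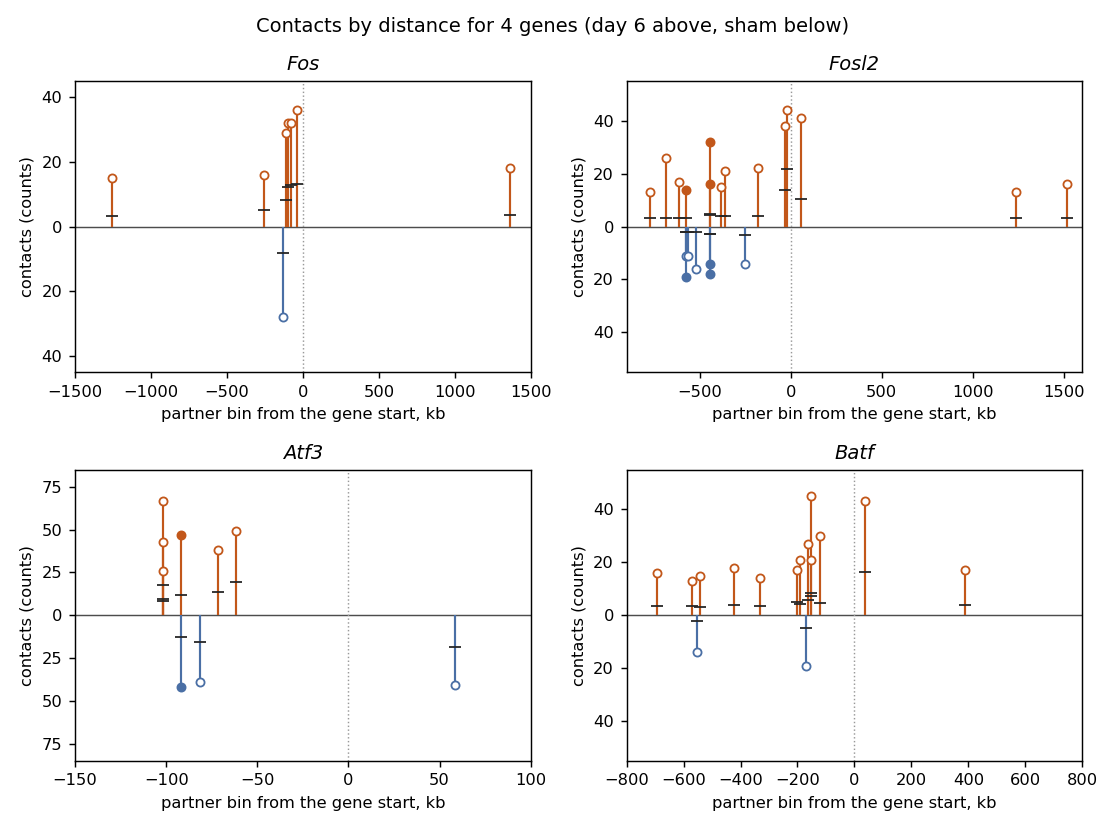
Contacts (contact counts) of each interaction of Fos, Fosl2, Atf3 and Batf against the distance of the partner bin from the gene start in kb (negative is upstream), day 6 upward and sham downward. Filled points are in both lists, open points in 1 list and short dashes are the caller's expected counts. The Atf3 points at the left of its panel are the 67, 43 and 26 contacts of 1 partner bin at day 6, and Batf shows a group of day 6 points 120 to 200 kb upstream.

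The partners of the 9 genes lay upstream more often than downstream. Among the 8 genes with a known start, 33 of 38 sham interactions (86.8%) and 60 of 80 day 6 interactions (75%) went upstream. Over 14731 genes the share was 51.3% in sham and 50.6% at day 6. Without Jun it was 80% of 25 in sham and 71.6% of 67 at day 6. The interactions of a gene share its neighbourhood, so these are not independent points. Partner bins without a coding gene made up 18 of 41 in sham (43.9%, 28.5 to 60.3) and 30 of 90 at day 6 (33.3%, 23.7 to 44.1). The share among all interaction ends was 24.4% and 20.8%, below both intervals. Without Jun it was 10 of 28 in sham (35.7%, 18.6 to 55.9) and 22 of 77 at day 6 (28.6%, 18.8 to 40.0), and these intervals include the shares of all ends. Median distance was 170 kb in sham and 165 kb at day 6, against 140 and 160 kb for the lists. No sham interaction of the 9 genes spanned over 1 Mb, and 9 of 90 (10%) did at day 6, where the list had 9.58%.

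Of the 41 sham interactions, 17 were in the day 6 list with the same pair of bins. They were 41.5% (26.3 to 57.9) of the sham interactions and 18.9% (11.4 to 28.5) of the day 6 interactions of these genes, against 24.6% and 10.9% for the whole lists. Jun held 9 of the 17, Fosb 3, Fosl2 3, Junb 1 and Atf3 1. For Jun these were 69.2% of its 13 interactions in each list, so the excess over the whole lists rests largely on Jun. Interactions of a gene share its neighbourhood, whereas the intervals treat them as independent. The 17 interactions held 634 contacts in sham and 773 at day 6, with 13 of 17 higher at day 6 before scaling. Jund, Fos, Fosl1 and Batf shared none. Of the 24 sham interactions found in that list only, 21 joined bins that were both anchors at day 6. Of the 73 found at day 6 only, 45 joined bins that were both anchors in sham. For an interaction in 1 list, the count in the other library is unknown.

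The rule that took interactions by gene position did not use the coverage of anchor bins, but the genes were chosen with earlier results known. The start bins of 7 of the 9 genes were anchors in both lists with a known start, and 4599 such bins had the start of any coding gene. Batf, whose start bin was no anchor in sham, and Fosl1, with no known start, are left out. Relative coverage of the Jun bin was 2.71 in sham and 5.71 at day 6, a log2 ratio of 1.07, higher than in 98.8% of these bins. The Fosl2 bin had 1.04 and 2.14, a log2 ratio of 1.04 at percentile 98.4. The Junb bin had 2.01 and 3.49 (0.80, percentile 93.2), the Atf3 bin 1.84 and 2.87 (0.64) and the Jund bin 1.31 and 2.03 (0.64). Fos, with 1.69 and 2.24 (0.41), and Fosb, with 1.48 and 1.55 (0.07), were nearer the median of all start bins, which was 0.22 with a middle range of -0.03 to 0.48. The start of Fosb lies close to the edge of its bin. The other Fosb bin, which holds most of the gene, had 1.53 and 2.39, a log2 ratio of 0.64.

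The ratios of the 7 start bins were all above 0, as in 72.4% of start bins. Bins with high coverage in sham had higher ratios: the 1152 bins from 1.41 upward had a median of 0.49. Within them the percentile of Jun was 96.3, that of Junb 83.1 and that of Atf3 67.8, while Fos was at 38.5 and Fosb at 6.51. Coverage and contacts did not order the genes alike: Jun had the highest ratio of coverage and, by called contacts, the lowest ratio of contacts. Jun was not the lowest in contacts with lists of equal length, at 0.33 against -0.26 for Junb and -0.19 for Jund. Nor was it with a q-value under 0.00001, at 0.07 against -0.63 for Jund.

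**Figure D5:**
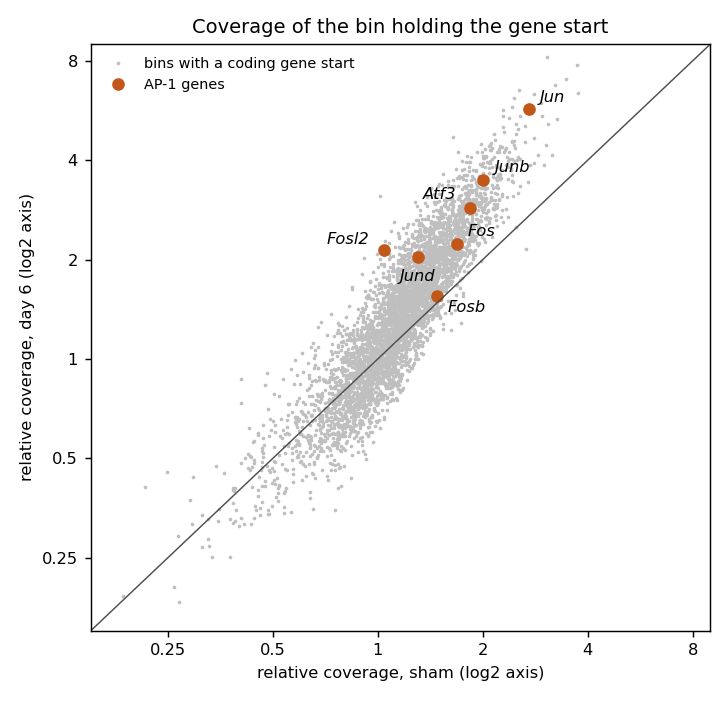
Relative coverage of the bin with the gene start, sham against day 6 on log2 axes; grey points are 4599 bins with a coding gene start that were anchors in both lists, orange points are the 7 AP-1 genes among them and the line marks equal values. Jun (2.71 and 5.71) and Fosl2 (1.04 and 2.14) lie farthest above the line, and Fosb (1.48 and 1.55) lies almost on it.

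Other genes with profiles most like each of the 9, by the summed difference of log2(value + 1) of interactions and contacts over both libraries, were found outside their own bins. For Jun they were Mgme1, Dnase1l1 and Il6st, each with 13 interactions in sham and 14 to 15 at day 6. For Junb they were Dennd6b, Lst1 and Arl4d, and for Jund Gtf2i, Olfr750 and Uckl1. Evi5l, Dse and Atp5j were most like Fos, with 1 interaction in sham and 7 at day 6. Those of Fosb were Cdc42bpg, Axl and Foxj2, those of Fosl1 Cse1l, Arfgap1 and Capn7, and those of Fosl2 Plxdc2, Aftph and Arpc3. Cdk5, Tnfaip2 and Mgat4b were nearest to Atf3, and Ppih, Col16a1 and Padi2 nearest to Batf, each of the latter with 2 interactions in sham and 13 at day 6.

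Among 24 other AP-1 and bZIP genes, 21 had at least 3 interactions in either list, of which 9 had more contacts at day 6, 3 fewer and 9 neither, against 39.1% more and 10.3% fewer over all genes. The median log2 ratio was 0.74, or 0.59 over those with interactions in both lists. By shared interactions 16 had more and none fewer (66.3% more over all genes), and by modelled contacts 18 and none (84%). These counts are near the shares over all genes. The highest ratios were those of Creb3l4 with 19 and 397 contacts (3.09), Batf3, the dendritic cell relative of Batf, with 26 and 231 (1.93), and Atf6 of the unfolded protein response with 78 and 504 (1.56). The lowest by called contacts were Xbp1, another factor of that response, with 81 and 56 (-1.52), Crem with 64 and 47 (-1.42, with 2 interactions in each list and so not measured) and Atf5 with 66 and 62 (-1.11). Creb5, Atf2 and Creb3l3 were in the day 6 list only, with 116, 77 and 59 contacts.

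Of 24 kinase and serum response genes that act on AP-1, 18 were measured, and 5 had more contacts and none fewer, with a median of 0.51, or 0.37 over those in both lists. Over all genes 39.1% had more and 10.3% fewer. By the other scalings 13 and 15 had more and none fewer. The highest were the serum response partner Elk4 with 19 and 141 contacts (1.64), Mapk3 with 32 and 214 (1.55) and Elk3 with 52 and 278 (1.27). Mapk9, which encodes the Jun kinase JNK2, was listed at day 6 only with 61 contacts, as was Mapk8, which encodes JNK1, with 26. The lowest by called contacts were Elk1 (-0.92), Map2k7 (-0.90) and Map2k1 (-0.85), none past the rule.

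Of 25 immediate early genes, 21 were measured, and 8 had more contacts, none fewer and 13 neither, with a median of 0.79, or 0.43 over those in both lists. The share with more was near the 39.1% of all genes, of which 10.3% had fewer. By the other scalings 15 and 18 had more. Zfp36, which encodes the RNA-destabilising tristetraprolin, had 29 and 567 contacts (3.06), Nr4a3 16 and 177 (2.16) and Klf6 52 and 516 (2.15). Egr3, Btg2 and Ccn1 were in the day 6 list only. The lowest by called contacts were Dusp1 with 62 and 40 (-1.58, with 2 interactions in each list), Klf2 (-0.88) and Myc (-0.84).

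Of 30 genes known as AP-1 targets, 20 were measured, and 6 had more contacts by called contacts, 6 fewer and 8 neither, with a median of -0.12, or -0.25 over those in both lists. Over all genes 39.1% had more and 10.3% fewer. By shared interactions 10 had more and 1 fewer, and by modelled contacts 12 and none. Plau, the urokinase plasminogen activator, had 24 and 357 contacts (2.64), its receptor Plaur 20 and 215 (2.16) and Cd44 17 and 86 (1.10). The membrane protease gene Mmp14 had 130 and 39 (-2.64 by called contacts), and Hmox1 had 158 and 109 (-1.58). Hbegf, Spp1 and Ptgs2 were in the day 6 list only, with 65, 49 and 34 contacts.

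Marker genes of microglia had interactions in both lists for 6 of 6, with 57 interactions in sham and 72 at day 6. The day 6 list was 2.25 times as long as the sham list. By called contacts 3 of the microglia markers had fewer contacts at day 6 and none more, and by shared interactions none had fewer and 3 more. Over all genes 10.3% had fewer and 39.1% more by called contacts, and 1.93% and 66.3% by shared interactions. For endothelium 3 of 5 markers had interactions, 5 in sham and 21 at day 6, and for monocytes and macrophages 4 of 6, 14 and 23. Of 3 measured endothelial markers, 2 had more contacts by called contacts and none fewer. Of 3 measured markers of monocytes and macrophages, 1 had fewer and none more. Astrocyte, oligodendrocyte and neuron markers had interactions for 3 of 4, 3 of 4 and 2 of 4. No astrocyte marker passed the rule by called contacts, 1 oligodendrocyte marker had more, and of the neuron markers 1 had more and 1 fewer. Of the neutrophil and T and NK cell markers, Cxcr2 and Cd3g had interactions, at day 6 only, and the other 7 had none in either list. The part of these cell types in the AP-1 results was not tested, and a change in the share of cells cannot be told apart from a change in contacts per cell.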

How the data were processed

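H3K27ac HiChIP was done on sorted microglia in 1 sham library and 1 library at day 6 after MCAO. Per the submitters' processing notes, HiC-Pro 3.1.0 was used with mm10 and GRCm38. The interaction caller was not given in the sources used here. Per the file headers, each deposited row joins a pair of 10 kb bins and holds a contact count, the coverage (a read count) and bias of each anchor, an expected contact count, and a p-value and q-value. The deposited bias is a ratio, made by the authors' caller, which equals the coverage divided by a constant of the library, and is called relative coverage here. The deposited expected contact count (a signal, not a read count) is the caller's probability, a fraction per the file headers, times a constant of the library. Every deposited q-value was at most 0.001, and distances ran from 20 kb to 2.0 Mb. Lists held 501608 contacts in sham and 1074041 at day 6; these are sums over called interactions and not the depth of the libraries, which is not analysed here.

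The 9 genes and the gene lists were chosen with earlier results of these data known. Genes were the 21887 coding genes of RefSeq GRCm38.p6, and neighbouring genes in a bin share its interactions. Contacts were summed per gene, and the log2 ratio was taken after adding 5 contacts in proportion to each library total. All 9 genes are named, with partner genes of shared interactions and of the 3 deepest partner bins per library. Of other lists up to 3 genes at each end of the log2 ratio among those in both lists, and up to 3 of the deepest in 1 list, are named. Jdp2, and the bins beside Fos and Junb, were chosen after their values were seen, as was leaving out Jun. Distances are between bin starts, and positions are 1-based. The name Trbc2 of the T and NK cell list was not matched. Mrtfa and Mrtfb stood in the kinase list under older symbols too and count once. Python 3.11.15 with pandas 2.3.3, scipy 1.17.1 and matplotlib 3.10.9 was used, and the counting was tested on simulated data. Alternatives were scaling by shared interactions or by modelled contacts, lists of equal length, a q-value under 0.00001, a flank of 0 or 5 kb, bins at the gene ends only, a prior of 1 contact and a tolerance of 1 bin.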

Additional observations from a re-analysis of the deposited data

How the results depend on the processing

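No paired analysis was possible because each group has 1 library, and no replicate could be left out. Over the alternatives, 33 of 48 values of the counts above stayed within 1.5 times. Of the 9 genes, 5 had more contacts at day 6 when scaled by shared interactions, 9 when scaled by modelled contacts and 1 with lists of equal length. Of the other AP-1 and bZIP genes, scaling by shared interactions put 16 at more contacts and 0 at fewer, and scaling by modelled contacts put 18 and 0 there. With a q-value under 0.00001 these were 5 and 0, and with no flank 1 had fewer. No share over all genes was counted with a q-value under 0.00001 or with no flank, so these counts have no background. Of all genes, 66.3% had more contacts when scaled by shared interactions, 84% when scaled by modelled contacts and 30.1% with lists of equal length. The shares of genes with fewer contacts were 1.93%, 0.82% and 17.9%, in the same order. The day 6 interactions of the 9 genes numbered 52 with lists of equal length and 55 with the stricter q-value, which left 19 in sham. Shared interactions numbered 8 with the stricter q-value and 30 when anchors within 1 bin counted as the same. With a flank of 5 kb the log2 ratio of Fos turned from 1.47 to -0.34. With the stricter q-value Batf kept no sham interaction, and Atf3 reached 1.10. Fosl1 reached 1.00 with a flank of 5 kb. The log2 ratio of Jun ranged from -0.42 to 1.35 and that of Fosb from -0.39 to 1.59. Apart from changes made by scaling or by counting fewer or more bins, the causes were not tested. A gene or pair of bins missing from a list had no contacts past the caller's threshold there, and its level below it is unknown.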
